A study of Mus musculus with 14 samples.

Results

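The enzymes that carry pyruvate into the citrate cycle and turn the cycle were followed in hippocampal CA3 of wild-type and Dcx mutant mice. Members were the genes with the platform symbols Pdha1, Pdhb, Dld, Cs, Idh3a, Ogdh, Fh1, Mdh1 and Mdh2, and a probe was kept where its detection p was under 0.05 on 4 or more arrays. All 9 genes were measured, among 8671 named genes, and 11 of their 12 probes passed the filter. The probe used for each gene, its brightest, was detected on all 14 arrays.

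Pyruvate dehydrogenase is the mitochondrial complex that turns pyruvate from glycolysis into acetyl-CoA. Citrate synthase joins acetyl-CoA to oxaloacetate, and the cycle that follows releases carbon dioxide and hands electrons to the respiratory chain through NADH and FADH2. Neurons draw most of their ATP from this route, and the cytosolic and mitochondrial malate dehydrogenases also run the malate-aspartate shuttle, which carries reducing equivalents of glycolytic NADH into mitochondria.

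Total RNA was amplified, biotin-labelled and hybridised to Illumina bead arrays, 1 array per sample. The wild-type (WT) group held 5 adult mice of the Sv129Pas strain, with CA3 taken as a single piece. The mutant groups held adult mice of the same strain labelled Dcx, a gene whose X-linked product doublecortin binds microtubules; the design text calls these animals knockouts. Their CA3 pyramidal cells lie in separate layers, and the outer layer (SPE, external stratum pyramidale) was taken from 5 mice and the inner layer (SPI, internal stratum pyramidale) from 4 of the same 5. The layers were compared with undivided WT tissue, so a mutant layer and WT differ in dissection as well as genotype, and these cannot be told apart. The labels give neither the mutated part of Dcx nor the sex of the animals, and they say that the dissected material was pooled. The outer samples carry the abbreviation SPI in their region label, against their titles and the word external in that label, and the titles were followed.

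Before normalisation the mean bead signal was 371 to 515 intensity units on the WT arrays and 279 to 482 on the SPE arrays. It was 119, 362, 331 and 231 on the SPI arrays of mice 147, 146, 166 and 148, so SPI 147, SPI 148 and SPE 148 were the 3 dimmest arrays. Dcx was read by 2 dim probes past the filter, in which WT and SPE arrays overlapped. In the brighter of these the SPI difference from WT was -0.43 ± 0.23 (log2 ± SE, limma adjusted p = 0.180). The other, detected on 5 WT, 4 SPE and 0 SPI arrays, was at least 1.44-fold lower in SPI than in WT. Its fitted difference against undetected SPI values was -0.86 ± 0.17 (limma adjusted p = 0.00300). All 8 measured CA3 pyramidal markers were detected in each group. Their summed signal was 24333 to 28267 units in WT, 20575 to 29419 in SPE and 18638 to 26611 in SPI.

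In the inner layer, 3 of the 9 enzymes fell against WT and 0 rose: Pdhb, Mdh1 and Pdha1, by 3.27-fold, 2.25-fold and 1.31-fold. Across all 9355 features, 24.5% were called either way and 10.9% were called lower, at a Benjamini-Hochberg adjusted p under 0.05 from a limma fit over all arrays with the animal as a random block. The members' median log2 difference was -0.20, against 0.035 over all features, and their range was -1.71 to 0.45. The 3 genes called were also the 3 whose SPI and WT arrays did not overlap, a state that 8.9% of all features showed in the lower direction. The probes used for the genes of both catalytic E1 subunits of pyruvate dehydrogenase were called lower. So was 1 of the 2 measurable probes of the cytosolic malate dehydrogenase, while the 6 other members did not pass. The quantile-normalised fit called 1273 features higher and 1016 lower, but other scalings moved that split: median scaling gave 16 higher and 4003 lower with an all-feature median of -0.85, and median scaling over detected probes gave 2695 and 491 with a median of 0.34. Relative to those medians Pdhb was at -1.80 and -1.78, Mdh1 at -1.22 and -1.21, and Pdha1 at -0.67 and -0.68. The 2 scalings differ only by a factor per array, so each pair is alike by construction and is not 2 separate readings. Under median scaling over detected probes Pdha1 lost its call (-0.33, limma adjusted p = 0.0607).

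**Figure D1:**
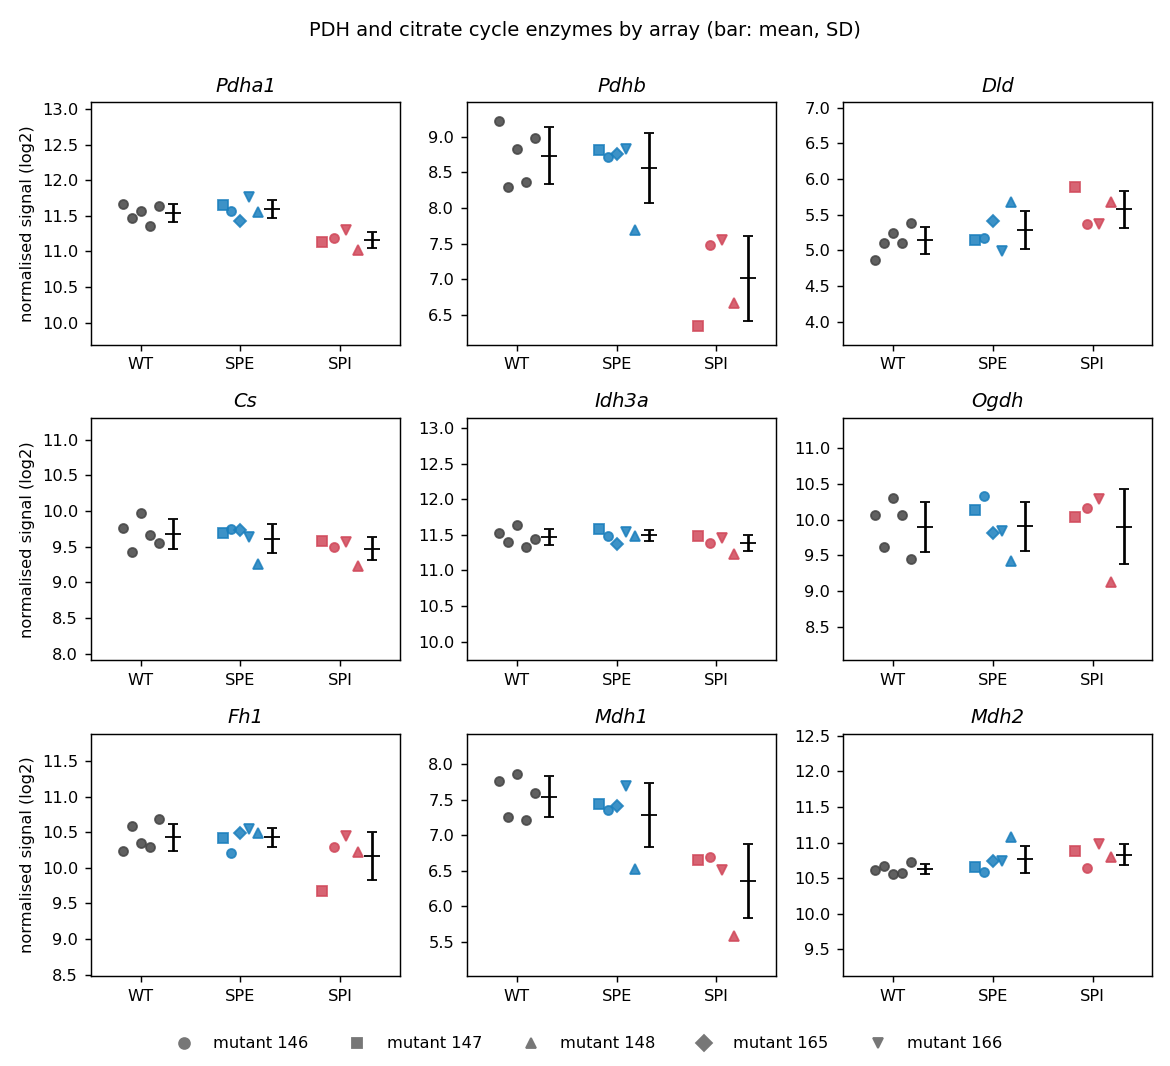
Normalised log2 signal (y axis) of the 9 enzymes in the WT, SPE and SPI groups (x axis), 1 symbol per array, with the group mean and SD beside it; symbol shapes mark the mutant animals. For Pdhb the 4 SPI arrays lie at 6.34 to 7.55, below all WT and SPE arrays, while for Ogdh and Idh3a the groups overlap.

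The windows before the annotated starts of these 3 genes are shown because the genes fell together. They were taken from RefSeq on GRCm38.p6, where 8 of the 9 members had a window. Each run is the 250 bases before the start, read 5' to 3' on the gene's own strand, and capitals mark a Sp1 box (GGGGCGGGG) or a CCAAT box (CCAAT, or ATTGG on the other strand). The Pdhb window lies at chr14:8172993-8173242 on the minus strand, the Mdh1 window at chr11:21571935-21572184 on the minus strand and the Pdha1 window at chrX:160138431-160138680 on the minus strand.
Pdhb: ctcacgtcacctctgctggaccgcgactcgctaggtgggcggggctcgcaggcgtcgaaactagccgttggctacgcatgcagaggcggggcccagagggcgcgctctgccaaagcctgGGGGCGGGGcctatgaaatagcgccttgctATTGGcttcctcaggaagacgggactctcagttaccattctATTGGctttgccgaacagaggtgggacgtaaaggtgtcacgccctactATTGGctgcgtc
Mdh1: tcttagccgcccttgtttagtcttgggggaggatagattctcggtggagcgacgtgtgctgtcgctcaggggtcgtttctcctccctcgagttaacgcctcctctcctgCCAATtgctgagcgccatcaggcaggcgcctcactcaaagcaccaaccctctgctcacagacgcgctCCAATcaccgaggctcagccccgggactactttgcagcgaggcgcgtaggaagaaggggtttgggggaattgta
Pdha1: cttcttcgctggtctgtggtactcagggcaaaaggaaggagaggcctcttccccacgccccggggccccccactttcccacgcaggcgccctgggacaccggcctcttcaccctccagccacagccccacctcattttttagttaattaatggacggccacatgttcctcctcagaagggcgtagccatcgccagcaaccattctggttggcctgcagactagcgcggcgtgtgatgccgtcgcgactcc
Pdhb held 1 Sp1 box, starting at position -131 from the gene's start, and 3 CCAAT boxes on the opposite strand, at -101, -60 and -12. Mdh1 held 2 CCAAT boxes on its own strand, at -141 and -74, and Pdha1 held none of the letters searched. Over 32851 windows of 300 bases, 11.45% held the Sp1 box, 37.41% a CCAAT box and 3.37% 3 or more CCAAT boxes. The search also covered the NRF1 core GCGCATGC and the extended ERR site TCAAGGTCA, both strands, which 2.71% and 0.42% of windows held; none of the 3 windows did. CCAAT was added to the search after the Pdhb window had been read. Dld, Cs and Fh1, which did not pass the test, each held 2 CCAAT boxes as well, 1 of those of Dld lying after the start. Every Ogdh window held a CCAAT box too, and a Sp1 box was found in windows of Ogdh and Mdh2. Whether the boxes bear on the levels of these genes was not tested.

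Pdhb encodes the beta subunit of E1, the component that decarboxylates pyruvate. In the WT mice 145, 206, 142, 199 and 144 its probe gave log2 values of 9.22, 8.29, 8.82, 8.36 and 8.98. The outer layers of mice 147, 146, 165, 166 and 148 gave 8.81, 8.71, 8.76, 8.83 and 7.69, and the inner layers of mice 147, 146, 166 and 148 gave 6.34, 7.49, 7.55 and 6.67. All 4 inner layers lay below every WT and every outer layer, and SPE 148 lay below the other outer layers. The difference from WT was -1.71 ± 0.29 (log2 ± SE, limma adjusted p = 0.00120). The inner layer of mouse 147, the dimmest array, was also the lowest for Pdhb. Without the 3 dimmest arrays the difference was -1.22 (adjusted p = 0.00150), and with the mean signal of each array as a covariate it was -0.92 (adjusted p = 0.0343).

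The second Pdhb probe was dim. It was detected on 2 WT, 2 SPE and 0 SPI arrays, so the inner layer has only an upper bound there, no fold is given, and it bears on the fall of Pdhb in neither direction.

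Mdh1 encodes the cytosolic malate dehydrogenase. The signal of the probe used was 7.76, 7.26, 7.86, 7.22 and 7.60 in the WT mice, in the order given for Pdhb. It was 7.44, 7.35, 7.41, 7.69 and 6.52 in SPE and 6.65, 6.69, 6.51 and 5.58 in SPI. The inner layers lay below all WT arrays, but SPE 148 fell within the SPI range, and SPI 148 was the lowest array. The difference from WT was -1.17 ± 0.23 (log2 ± SE, limma adjusted p = 0.00308). With mean signal as a covariate it was -0.99 and no longer passed (adjusted p = 0.0600).

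A second Mdh1 probe, detected on all 14 arrays, did not show this fall. It read 6.24, 6.56, 6.16, 6.01 and 6.40 in WT, 5.87, 6.25, 6.51, 6.36 and 6.43 in SPE, and 6.09, 6.46, 6.64 and 6.82 in SPI. The 3 groups overlapped. Its SPI difference from WT was 0.25 ± 0.16 (limma adjusted p = 0.261, all probes as features), opposite in sign to the -1.17 of the probe used, and in the 4 mice with both layers it was higher in the inner layer, by 0.21 to 0.40. The remaining Mdh1 probe was detected on 0 arrays. The fall of Mdh1 therefore rests on 1 of 2 measurable probes. With the mean of the gene's probes the difference was -0.46 (adjusted p = 0.0189). Where the probes lie on the transcript was not analysed here.

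**Figure D2:**
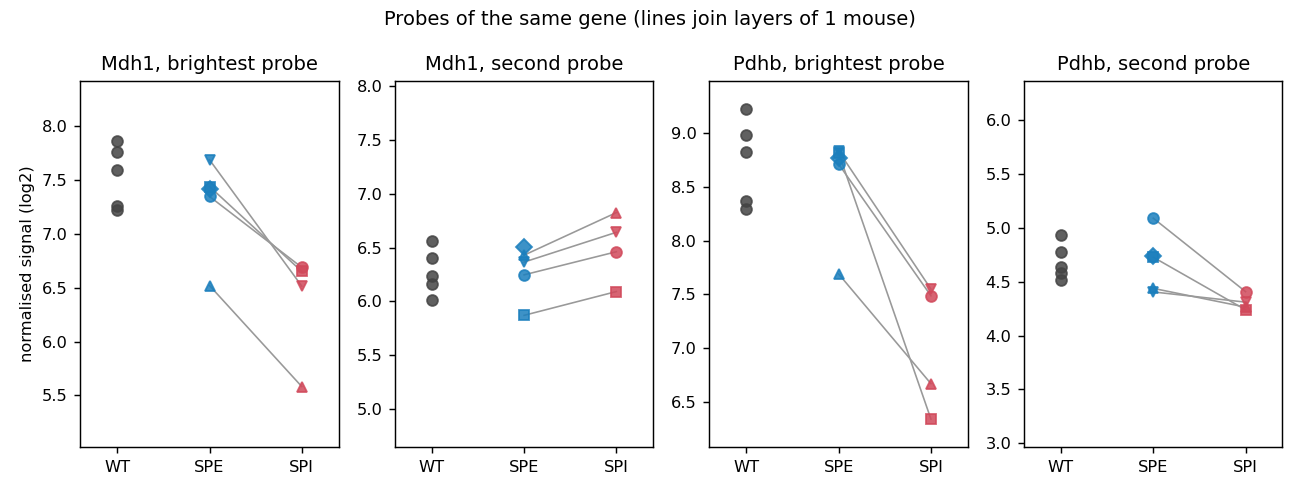
Normalised log2 signal (y axis) of the probes of Mdh1 and Pdhb past the filter in the WT, SPE and SPI groups (x axis); lines join the layers of 1 mutant animal. The Mdh1 probe used falls from SPE to SPI in each of the 4 animals and the second Mdh1 probe rises in each; the second Pdhb probe was detected on 0 SPI arrays.

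Pdha1 encodes the somatic alpha subunit of E1, which carries the sites that the pyruvate dehydrogenase kinases phosphorylate. Its signal was 11.67, 11.46, 11.57, 11.35 and 11.64 in WT, 11.65, 11.57, 11.43, 11.77 and 11.55 in SPE, and 11.14, 11.19, 11.30 and 11.02 in SPI. All inner layers lay below all other arrays, by a small margin. The difference from WT was -0.39 ± 0.10 (log2 ± SE, limma adjusted p = 0.0150). The call was lost in 4 of 28 alternative settings. These were without the 3 dimmest arrays (-0.29, adjusted p = 0.109), without SPI 148 (-0.34, adjusted p = 0.0503), with mean signal as a covariate (-0.34, adjusted p = 0.15) and with median scaling over detected probes (-0.33, adjusted p = 0.0607).

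Dld encodes dihydrolipoamide dehydrogenase, the E3 component shared by the pyruvate, 2-oxoglutarate and branched-chain 2-oxoacid dehydrogenases. Its dim probe read 4.86, 5.11, 5.25, 5.10 and 5.38 in WT, 5.15, 5.18, 5.41, 5.00 and 5.68 in SPE, and 5.89, 5.37, 5.37 and 5.67 in SPI. WT 144 and SPI 146 and 166 read almost alike, and the groups overlapped. The highest values were those of SPI 147, SPE 148 and SPI 148, the dimmest arrays. On SPI 147 the value of 5.89 lay near that array's lowest detected level, 5.66. The SPI difference was 0.45 ± 0.16 (95% interval 0.11 to 0.78, limma adjusted p = 0.0506), just outside the threshold. Without those dimmest arrays the SPI difference was 0.25 (limma adjusted p = 0.267). With mean signal as a covariate it was 0.15 (limma adjusted p = 0.634). It passed in 6 of 28 alternative settings, among them without WT 144 (adjusted p = 0.0452), without SPI 146 (0.0470) and without SPE 148 (0.0308), and median scaling turned its sign (-0.17).

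The other members did not pass in the inner layer. Cs, citrate synthase, which opens the cycle, read 9.77, 9.43, 9.97, 9.66 and 9.55 in WT and 9.59, 9.50, 9.56 and 9.23 in SPI, a difference of -0.20 ± 0.13 (limma adjusted p = 0.293, 95% interval -0.48 to 0.083). Its inner-layer arrays overlapped those of WT. Idh3a, the catalytic subunit of the NAD-linked isocitrate dehydrogenase, lay within 11.23 to 11.48 in SPI and 11.33 to 11.64 in WT (-0.089 ± 0.098, adjusted p = 0.541). Ogdh, the E1 component of the 2-oxoglutarate dehydrogenase complex, varied between animals within each group, from 9.45 to 10.30 in WT and from 9.12 to 10.28 in SPI (-0.0052 ± 0.23, adjusted p = 0.991). Its 95% interval, -0.50 to 0.49, includes changes of the size seen in Pdha1.

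Fh1 encodes fumarase. It read 10.24, 10.58, 10.35, 10.30 and 10.68 in WT and 9.68, 10.30, 10.45 and 10.23 in SPI, where mouse 147 was low and the other arrays overlapped WT (-0.26 ± 0.15, limma adjusted p = 0.230). Mdh2, the mitochondrial malate dehydrogenase, did not pass, at 10.56 to 10.72 in WT and 10.64 to 10.99 in SPI (0.20 ± 0.12, limma adjusted p = 0.225). Its sign was opposite to that of the Mdh1 probe used and the same as that of the second Mdh1 probe (0.25 ± 0.16). The 95% interval of Mdh2 was -0.047 to 0.44. Median scaling turned its sign (-0.96), which was -0.11 relative to the all-feature median of -0.85 there.

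In the outer layer none of the 9 enzymes was called against WT by limma, as for the array as a whole, where 0% of features passed and 358 had an unadjusted p under 0.05. None of the members was among those 358. The members' differences ranged from -0.26 for Mdh1 to 0.14 for Dld, with a median of 0.0073 against 0.036 over all features. For Pdhb the difference was -0.18 ± 0.28 (95% interval -0.76 to 0.41) and for Mdh1 -0.26 ± 0.22 (-0.73 to 0.21). For Pdha1 it was 0.054 ± 0.099 (-0.16 to 0.26). The SPI and SPE comparisons share the 5 WT arrays, so their values stand here side by side and are not independent of each other.

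**Figure D3:**
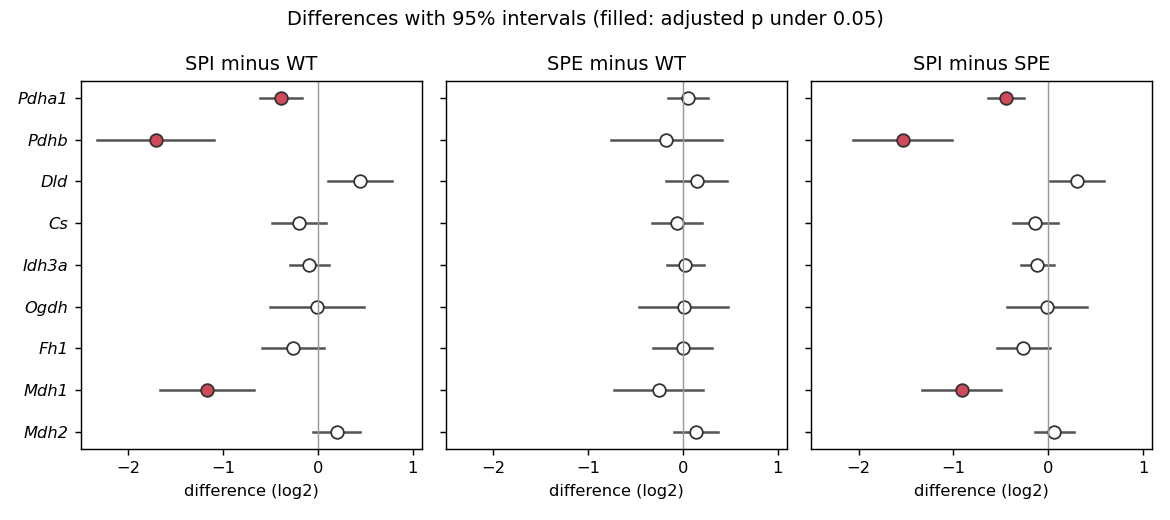
Log2 differences (x axis) of the 9 enzymes (y axis) in the 3 comparisons with 95% intervals; filled points have an adjusted p under 0.05. Pdhb, Mdh1 and Pdha1 are filled in SPI minus WT and in SPI minus SPE, and no enzyme is filled in SPE minus WT.

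The layers of the mutant were then compared directly, which tests the difference between the layers' distances from WT. Pdhb, Mdh1 and Pdha1 were lower in the inner layer and 0 members were higher, where 20.5% of all features were called either way (1014 higher, 903 lower) and 9.65% lower. Median scaling called 0 of the 9355 features here (4814 at an unadjusted p under 0.05), and median scaling over detected probes called 1595 higher and 305 lower. Pdhb was at -1.53 ± 0.25 (limma adjusted p = 0.000634), 2.89-fold lower. Pdha1 was at -0.45 ± 0.088 (adjusted p = 0.00298), 1.36-fold lower, and Mdh1, by the probe used, at -0.91 ± 0.20 (adjusted p = 0.00505), 1.88-fold lower. The second Mdh1 probe was at 0.24 ± 0.13 (limma adjusted p = 0.210, all probes as features). The layers did not overlap for Pdhb and Pdha1, as for 3.77% of all features in the lower direction. For the other 6 members the differences lay between -0.26 and 0.30, with limma adjusted p of 0.117 (Dld) to 0.973 (Ogdh).

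In all 4 mice that gave both layers, the probes used for the 3 genes called were lower in the inner one. The second Mdh1 probe was higher there in each of the 4, by 0.21 to 0.40. For Pdhb the inner layer minus the outer layer was -2.47, -1.22, -1.28 and -1.02 in mice 147, 146, 166 and 148. For Pdha1 it was -0.51, -0.38, -0.47 and -0.53, and for Mdh1 -0.79, -0.66, -1.17 and -0.94. Mouse 147 stood apart for Pdhb, and Pdha1 varied least, with a mean of -0.47 ± 0.065 (SD, n = 4 mice). Cs and Idh3a were also lower in the inner layer of each of the 4 mice, by means of -0.11 ± 0.098 and -0.13 ± 0.080, without passing in limma's fit. Without SPI 148 the Mdh1 call between layers was lost (-0.68, limma adjusted p = 0.0652), and without the 3 dimmest arrays the Pdha1 call was lost (-0.36, adjusted p = 0.0853).

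The inner-layer samples differed from WT in their cell type markers as well. Of the measured markers, 6 of 10 for astrocytes, 8 of 10 for oligodendrocytes, 2 of 4 for their precursors, 5 of 8 for microglia and 8 of 9 for interneurons were called higher in SPI, and 0 lower. Over all 9355 features 13.6% were called higher and 10.9% lower in SPI against WT. Summed signal was 5231 to 5983 units in WT, 5484 to 6429 in SPE and 9938 to 14616 in SPI for astrocyte markers, with Gja1, a gap junction protein, at 1.54 ± 0.17 log2 against WT. For interneuron markers it was 4841 to 5826, 3887 to 5260 and 10994 to 14557, and for oligodendrocyte markers 5237 to 7324, 6564 to 7062 and 10723 to 19180. Precursor markers summed to 533 to 653 in WT, 446 to 537 in SPE and 871 to 1039 in SPI, and microglia markers to 449 to 556, 546 to 620 and 888 to 1286. Pan-neuronal markers gave 1 rise and 4 falls of 10, with sums of 73386 to 74412, 66765 to 73535 and 64701 to 69693, and endothelial and mural markers 2 rises and 1 fall of 10, with sums of 785 to 955, 809 to 901 and 871 to 1275. The CA3 list gave 1 rise (Bok, 0.74 ± 0.16) and 1 fall (Cpne4, -0.91 ± 0.21) of 8. No measured marker was undetected across a whole group. The part of cell composition in the enzymes' values was not tested, and in bulk tissue fewer cells of a type and less RNA per cell cannot be told apart.

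The wider pathway was read in 6 lists of other genes, 36 of 54 of them measured. Against WT, 3 rose and 6 fell in SPI, which is 25% called, near the 24.5% of all features, and their median difference was 0.050. In SPE 0 of the 36 were called. Between the layers 3 were higher and 5 lower in SPI, which is 22.2% called, near the 20.5% of all features.

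Around pyruvate dehydrogenase itself, 0 of 7 measured genes rose and 2 fell in SPI against WT, with a list median of -0.26. Pdp1, the catalytic subunit of the phosphatase that reactivates the complex, read 6.18 to 6.91 in WT, 5.47 to 6.75 in SPE and 5.15 to 5.86 in SPI. The inner layers lay below all WT arrays and overlapped SPE 148, and the difference from WT was -1.0 ± 0.23 (limma adjusted p = 0.00712). SPI 147 was not detected, and without it the difference was -0.95. The call was lost with median scaling over detected probes (-0.40, adjusted p = 0.277) and with mean signal as a covariate (-0.59, adjusted p = 0.182). It was lower than in the outer layer too (-0.77 ± 0.20, adjusted p = 0.0132), a call lost in 6 of 27 settings, among them without SPI 148 (-0.66, adjusted p = 0.108), without the replicate block (-0.79, adjusted p = 0.0507) and with median scaling over detected probes (-0.21, adjusted p = 0.548). Pdk2, a kinase that inactivates the complex, was at -0.50 ± 0.17 (adjusted p = 0.0470), a call lost in 15 of 28 alternative settings. Pdk3, another of the kinases, was lower in SPI than in SPE (-0.31 ± 0.11), at an adjusted p of 0.050 that lay just inside the threshold and was lost in 19 of 28. Pdk4, the kinase induced by fasting, was detected on 1 of 5 WT, 0 of 5 SPE and 3 of 4 SPI arrays. It was at least 1.33-fold higher in SPI than in SPE, with 6.16, 4.83, 4.35 and 5.56 in the inner layers of mice 147, 146, 166 and 148. The fit gave 0.70 ± 0.22 against undetected SPE values (limma adjusted p = 0.0375), a call lost in 11 of the 20 alternative settings that could test it. The probe met the filter of 4 arrays only through the SPI arrays, so this call is not independent of the filter. Dlat, the E2 core of the complex, did not pass (-0.18 ± 0.17, adjusted p = 0.474).

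Among 8 other citrate cycle genes 1 rose and 1 fell against WT, with a median of 0.16, and both encode subunits of succinate dehydrogenase. Sdhb, the iron-sulfur subunit, read 9.62 to 9.86 in WT, 8.92 to 9.59 in SPE and 8.65 to 9.48 in SPI, at -0.55 ± 0.15 (limma adjusted p = 0.0186). A second Sdhb probe gave -0.50 ± 0.16. The call was lost without SPI 148 (-0.41, adjusted p = 0.0621) and with mean signal as a covariate (adjusted p = 0.160). The outer layers also lay below all WT arrays for Sdhb, without passing (-0.34 ± 0.14, limma adjusted p = 0.904). Between the layers it was not called (-0.21 ± 0.13, limma adjusted p = 0.266). Sdhc, a membrane anchor, was at 0.33 ± 0.11 (limma adjusted p = 0.0404), a call lost in 16 of 28 alternative settings. Its sign turned under median scaling (-0.80), where it lay 0.057 above the all-feature median of -0.85. Of the partners of Idh3a and Ogdh, Idh3b (0.017), Idh3g (0.16) and Dlst (0.19) did not pass. Of the pyruvate entry list 2 of 8 genes were measured and 0 were called, with Ldha at -0.10 ± 0.099 and Slc16a3 at 0.25 ± 0.21.

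Of 5 measured partners of the malate dehydrogenases in the malate-aspartate shuttle, 0 rose and 2 fell in SPI against WT, with a median of -0.28. Got1, the cytosolic aspartate aminotransferase, read 8.05, 8.04, 8.23, 8.10 and 8.26 in WT, in the same order of animals as for Pdhb. The outer layers read 8.04, 7.87, 8.21, 7.91 and 7.43, and the inner layers 7.38, 7.23, 7.50 and 7.02. The inner layers lay below all WT arrays and below all outer layers except SPE 148. The difference was -0.83 ± 0.14 from WT (limma adjusted p = 0.00108) and -0.58 ± 0.12 from SPE (adjusted p = 0.00336). Got2, the mitochondrial enzyme, did not pass (0.13 ± 0.093). Slc25a11, the 2-oxoglutarate and malate carrier, was at -0.41 ± 0.14 (adjusted p = 0.0407), but its other probes gave -1.23 ± 0.21 (detected on 11 arrays) and 0.28 ± 0.14 (detected on 14), so they disagreed in sign, and the call was lost in 9 of 28 settings. Slc25a12, an aspartate and glutamate carrier, was lower in SPI than in SPE (-0.30 ± 0.087, adjusted p = 0.0263), a call lost in 9 of 28 settings, and was at -0.28 ± 0.10 against WT (adjusted p = 0.0581).

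Among 8 measured genes of anaplerosis, citrate export and NADP-linked relatives 0 rose and 1 fell in SPI against WT, with a median of 0.11. Idh1, the cytosolic NADP-linked isocitrate dehydrogenase, read 6.87 to 7.68 in WT, 6.77 to 7.50 in SPE and 4.43, 6.58, 6.61 and 5.87 in the inner layers of mice 147, 146, 166 and 148. SPI 147 was not detected, so its value is not above background, and the other inner layers lay below all WT and outer arrays. The difference over all arrays from WT was -1.55 ± 0.37 (limma adjusted p = 0.00856), -1.03 without SPI 147 (adjusted p = 0.00309), and it was lost with mean signal as a covariate (-0.34, adjusted p = 0.277). Idh2, the mitochondrial counterpart, was at 0.49 ± 0.19 and did not pass (adjusted p = 0.0742). Among 6 measured genes of lipoylation and the branched-chain dehydrogenases, 2 rose and 0 fell, with a median of 0.11. Bckdha, the branched-chain E1 alpha subunit, was at 0.43 ± 0.11 (limma adjusted p = 0.0101). With median scaling it was at -0.79, 0.059 above the all-feature median of -0.85 there. Dbt, its E2 core, was at 0.52 ± 0.15 (adjusted p = 0.0254), a call lost in 7 of 28 settings, among them without WT 145, WT 199, SPI 146 or SPI 148 (adjusted p 0.0525, 0.0545, 0.0694 and 0.0626). A second Dbt probe, detected on 6 arrays, gave -0.092 ± 0.15. Median scaling gave -0.53 for the probe used, 0.33 above the all-feature median there.

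**Figure D4:**
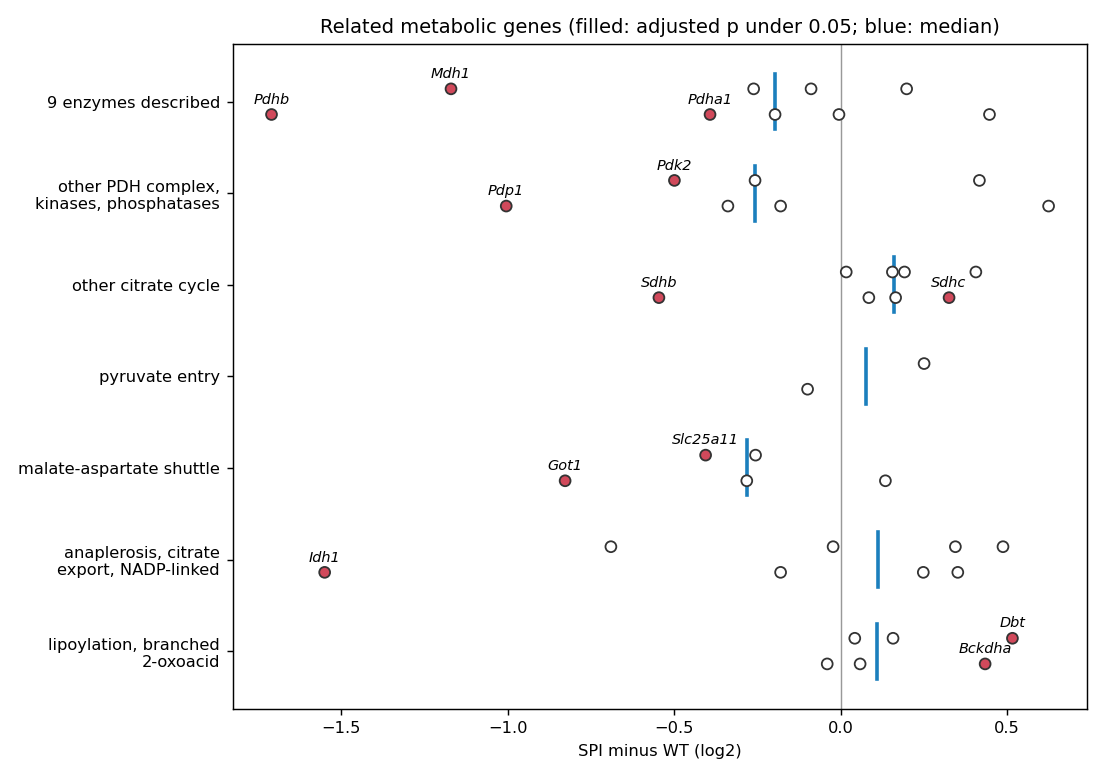
Log2 differences in SPI minus WT (x axis) of the measured pathway genes, 1 point per gene, grouped by list (y axis); filled points have an adjusted p under 0.05 and blue bars are list medians. Pdhb, Idh1 and Mdh1 lie farthest to the left, and the filled points to the right are Sdhc, Bckdha and Dbt.

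Other genes that followed the called members array by array were sought by the root mean square difference between profiles, each gene centred on its own mean over the 14 arrays. For Pdhb the nearest were Fam13c (0.148 log2 units), Tarsl2 (0.165) and Ncoa6 (0.171), where the profile of Pdhb itself deviated from its mean by 0.863. For Mdh1 they were Ppp2cb (0.161), Cdh8 (0.166) and Pdp1 (0.175), against 0.614 for Mdh1 itself. For Pdha1 they were Hey1 (0.0950), Cdk14 (0.0972) and Pik3c3 (0.0997), against 0.215. These are likenesses over 14 arrays that share groups and animals.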

How the data were processed

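Bead signal of 25697 probes on 14 arrays was analysed. The deposited intensity values carry no normalisation between arrays, and each has a deposited detection p-value; the submitters' processing notes list BeadStudio without a version. A second deposited table of normalised intensity values kept the probe ranks of the first and served as an alternative. The labels name 1 animal per sample, and the titles gave the groups. In limma 3.58.1 under R 4.3.3, neqc corrected the background (normexp, controls inferred from detection p, offset 16), followed by quantile normalisation and log2, so log2 values were computed here from the authors' intensities. A probe was kept at a detection p under 0.05 on 4 or more arrays (12140 of them), and a gene's brightest probe stood for it, giving 9355 features. Platform annotation named 1 gene for 23978 probes, several for 0 and none for 1719; 23962 matched RefSeq.

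One limma fit held all arrays. The animal was a random block (correlation 0.319), since same-numbered layers come from 1 mouse; their deviations from group means correlated at 0.131, 0.262, 0.266 and 0.626 in mice 147, 146, 166 and 148. Tests were two-sided with Benjamini-Hochberg adjustment over all features. The fit was also run on simulated data without brightness differences between arrays, so that run does not bear on the dim SPI arrays. The number of arrays limits the precision, and the labels name no batch. Named were all members and their probes, list genes called in any comparison or otherwise with the smallest p, the 3 nearest profiles of each called member, and leading markers. The members and lists were chosen with earlier results of these data known. Alternatives covered background, scaling, the deposited values, detection filters, probe summaries, the block, array weights, mean signal as a covariate, dim arrays and each array left out.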

Additional observations from a re-analysis of the deposited data

Results flagged for a closer look

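For Pdhb, the outer layer of mouse 148 stood apart from the other outer layers, at 7.69 log2 units against 8.71 to 8.83. For Cs, the same array was apart, at 9.25 against 9.64 to 9.75. For Mdh1, the inner layer of mouse 148 read 5.58 against 6.51 to 6.69 in the other inner layers. These gaps were large for the range of their groups by Dixon's criterion, which chance meets in about 1 group in 20, and 27 groups were looked at. Both arrays of mouse 148 were among the 3 dimmest, and the part of brightness in these values was not tested.

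The inner and outer layers differed in their distance from WT, by limma's direct test of the layers, for Pdhb (-1.53 log2, adjusted p = 0.000634), Mdh1 (-0.91, adjusted p = 0.00505) and Pdha1 (-0.45, adjusted p = 0.00298). The probe used for each gene was lower in the inner layer of 4 of 4 mice. The second Mdh1 probe was higher in the inner layer of each of these mice.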

How the results depend on the processing

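The count of members called was recomputed under 28 alternatives per comparison. For SPI against WT it was 3, and stayed within 1.5 times that in 26; median scaling gave 6, all lower, and mean signal as a covariate gave 1, with 503 features called. For SPI against SPE it was 3, and median scaling gave 0 (adjusted p of the called members 0.0702). For SPE against WT it was 0 in all 28. Leaving out 1 array at a time gave 2 to 4, 2 to 3 and 0, and leaving out the 3 dimmest arrays gave 2, 2 and 0. Without the replicate block, which the animal numbers justify, the counts were 3, 3 and 0, and the features called between the layers were 1065 against 1917; no member's call changed. Median scaling over detected probes, chosen after seeing the data, gave 3, with Dld higher (1.03) and Pdhb and Mdh1 lower, and 2 between the layers, where Mdh1 was lost (-0.62, adjusted p = 0.0680). Median scaling turned the sign of Sdhc (-0.80), Bckdha (-0.79) and Dbt (-0.53) against WT and of Sdhc (-0.70) and Bckdha (-0.70) between the layers. None of these was called lower (limma adjusted p 0.0909 to 0.211), and each lay above the median over all features, -0.85 and -0.73. The Pdhb call against WT held in all 28, from -2.65 to -0.92. Over the single genes and settings 1011 values kept sign and side of the threshold, and 58 turned sign without being called under either setting. With the sign kept, 137 lost a call and 9 gained one, and 5 lost a call with the sign turned. The cause was not tested. Where signal over background was low, as for Pdk4, Dcx and the second Pdhb probe, some groups have only a bound.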
